A study of Mus musculus with 6 samples.

Results

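The genes described here build and run striated muscle, the muscle of the heart and the skeleton: 25 genes of the cardiac sarcomere, its calcium handling and its membranes, and 13 genes of skeletal muscle. They were taken from a list of 38 names, and all 38 were measured, each through a single probe set with exactly 1 gene symbol, among 19938 genes compared. Expression was read on 6 microarrays, 3 of ascending aorta and 3 of descending aorta. The vessels came from untreated embryos of the C57BL/6 strain, wild-type in genotype, taken 13.5 days after mating (days postcoitum). The segments were chosen because their smooth muscle comes largely from neural crest in the ascending and from mesoderm in the descending aorta. Both groups are whole dissected vessels, so they share strain, age and genotype and hold every cell type of the wall and whatever adjoined it, and fewer cells of a type cannot be told apart from less RNA per cell. The arrays are labelled biological replicates, with no embryo, litter or pool stated, so a p-value here reflects the spread among these samples, which may in part be technical. Values are log2 expression after the authors' RMA processing, a difference is ascending minus descending, and the number of arrays limits the precision.

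Striated muscle contracts through sarcomeres, in which myosin of the thick filaments pulls on actin of the thin filaments. Troponin T ties the troponin complex to the thin filament, troponin I holds contraction off, and troponin C lets it start when calcium leaves the sarcoplasmic reticulum. The smooth muscle of the aortic wall contracts without sarcomeres, while the ascending aorta arises from the outflow tract of the heart, whose embryonic wall contains heart muscle.

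The array labelled ascending replicate 3 was closer to the descending arrays than to the other ascending arrays. Across genes its mean correlation was 0.988 with the other ascending arrays and 0.996 with the descending arrays. The same correlations were 0.992 and 0.990 for ascending replicate 1, and 0.989 and 0.985 for ascending replicate 2. The 0.988 alone thus does not set ascending replicate 3 apart, and ascending replicate 2 was the ascending array farthest from the descending ones. No gene of 19938 passed an adjusted p of 0.05 over all 6 arrays in limma, a linear model per gene with moderated variance, and the smallest adjusted p was 0.53. Without ascending replicate 3, 933 genes passed. Because the choice to leave it out came from its own values, p-values without it are likely too small and differences may be too large. Results are given with and without it. Smooth muscle markers were present on every array: Acta2, the smooth muscle actin gene, lay between 13.63 and 13.77 throughout, and the mean of 13 smooth muscle genes lay between 11.00 and 11.37 in ascending and between 11.11 and 11.19 in descending aorta.

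A few cardiac genes stood well above the descending aorta on 2 of the 3 ascending arrays, while most cardiac members and the skeletal members differed less. Without ascending replicate 3, 5 of the 25 cardiac members were higher in ascending aorta at an adjusted p under 0.05 by limma, where 2.07% of all genes were. These were Popdc2 and Bves, which encode membrane proteins of the Popeye family, the troponin genes Tnnt2 and Tnni1, and the myosin light chain gene Myl3. Their folds lay between 1.92 and 5.57 without that array, and between 1.47 and 3.13 over all 6 arrays. No skeletal member passed in either direction (0 of 13, limma), where 2.61% of all genes were lower. Over all 6 arrays 0 of 38 members passed (0% of all genes in either direction), and at an unadjusted p under 0.05 the count was 6 of 25 cardiac members higher (3.96% of all genes), 0 cardiac members lower (5.33%) and 0 skeletal members in either direction. With descending replicate 1 left out as well, 4 cardiac members passed as higher and 0 members as lower. Among all genes 1.17% and 1.18% did, and Myl3 no longer passed (adjusted p = 0.129 by limma). The mean correlation of descending replicate 1 with the other descending arrays was 0.995, against 0.996 for descending replicates 2 and 3. The caution on p-values after leaving out an array holds here too.

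The stretches around the transcript starts of the genes that carry these differences are printed here, from RefSeq on GRCm38.p6, 250 bases before to 50 after the start. Of the 38 members, 22 cardiac and 8 skeletal genes had such a stretch. Bves is named only. Popdc2, Tnnt2, Tnni1 and Myl3 are shown because they passed without ascending replicate 3, Actc1 because its ascending arrays all lay above the descending ones, and Acta1 as its skeletal counterpart. Capitals mark letters of 4 motifs of muscle genes, searched on both strands: the CArG box of serum response factor, the MEF2 site, the M-CAT element CATTCC and the E-box CAGCTG. For Tnnt2 and Tnni1, which have a pair of annotated starts each, the more upstream one is shown.
Popdc2, chr16:38361940-38362239, plus strand: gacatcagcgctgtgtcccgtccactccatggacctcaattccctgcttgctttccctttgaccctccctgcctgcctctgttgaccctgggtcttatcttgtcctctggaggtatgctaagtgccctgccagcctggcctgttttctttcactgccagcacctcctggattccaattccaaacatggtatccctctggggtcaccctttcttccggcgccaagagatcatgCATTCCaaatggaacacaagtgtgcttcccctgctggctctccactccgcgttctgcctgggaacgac
Tnnt2, chr1:135836084-135836383, plus strand: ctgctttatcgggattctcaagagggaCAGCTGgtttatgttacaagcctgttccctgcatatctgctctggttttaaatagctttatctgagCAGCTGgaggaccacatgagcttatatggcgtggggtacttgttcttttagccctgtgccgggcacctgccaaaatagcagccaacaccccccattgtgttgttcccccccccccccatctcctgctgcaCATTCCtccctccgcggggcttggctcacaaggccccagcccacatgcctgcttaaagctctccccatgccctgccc
Tnni1, chr1:135799171-135799470, plus strand: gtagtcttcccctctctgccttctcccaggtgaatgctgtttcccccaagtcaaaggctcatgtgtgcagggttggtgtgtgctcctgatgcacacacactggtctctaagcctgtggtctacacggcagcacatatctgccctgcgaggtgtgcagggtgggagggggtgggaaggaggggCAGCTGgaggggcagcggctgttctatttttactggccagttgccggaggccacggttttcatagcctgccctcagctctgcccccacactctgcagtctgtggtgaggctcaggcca
Myl3, chr9:110763428-110763727, plus strand: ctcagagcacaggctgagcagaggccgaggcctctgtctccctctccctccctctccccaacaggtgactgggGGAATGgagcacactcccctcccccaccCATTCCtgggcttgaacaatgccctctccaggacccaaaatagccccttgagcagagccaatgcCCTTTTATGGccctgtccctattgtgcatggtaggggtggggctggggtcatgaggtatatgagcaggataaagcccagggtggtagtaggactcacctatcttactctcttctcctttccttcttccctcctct
Actc1, chr2:114052826-114053125, minus strand: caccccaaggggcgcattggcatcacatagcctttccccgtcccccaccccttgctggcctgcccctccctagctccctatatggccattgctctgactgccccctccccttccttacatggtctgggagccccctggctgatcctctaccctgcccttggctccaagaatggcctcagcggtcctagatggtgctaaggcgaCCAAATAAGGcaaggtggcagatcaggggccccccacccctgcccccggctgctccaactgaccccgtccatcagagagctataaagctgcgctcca
Acta1, chr8:123894726-123895025, minus strand: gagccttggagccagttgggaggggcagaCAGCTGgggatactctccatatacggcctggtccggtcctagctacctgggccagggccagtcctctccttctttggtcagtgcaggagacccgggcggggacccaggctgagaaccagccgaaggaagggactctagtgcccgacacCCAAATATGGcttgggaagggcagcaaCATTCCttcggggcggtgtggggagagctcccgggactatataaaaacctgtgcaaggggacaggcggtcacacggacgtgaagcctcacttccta
Among all 32851 stretches of this length, 1.63% held a CArG box, 3.19% a MEF2 site, 14.7% CATTCC and 16.3% CAGCTG. A CArG box was found for 4 of 22 cardiac genes and 1 of 8 skeletal genes, and it starts at -47 from the transcript start in Actc1, at -73 in Acta1 and at -85 in Myl3. CATTCC was found for 9 of 22 cardiac genes and 1 of 8 skeletal genes, starting at -18 in Popdc2, at -27 in Tnnt2, at -177 and -149 in Myl3 and at -46 in Acta1. CAGCTG was found for 7 of 22 cardiac and 3 of 8 skeletal genes, starting at -223 and -157 in Tnnt2, at -68 in Tnni1 and at -221 in Acta1. A MEF2 site was found for 3 cardiac genes and 1 skeletal gene and in none of the 6 stretches shown. The CArG box was thus present in 1 gene that passed, Myl3, and in Actc1 and Acta1, which did not, and none of the 4 motifs was common to the 4 genes shown that passed. These are matches of letters and not measured sites, and positions are counted from annotated starts, which were not measured here.

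Popdc2, a member of the Popeye family of cyclic AMP binding membrane proteins, read 9.70, 10.02 and 7.37 on ascending replicates 1, 2 and 3, against 7.55, 7.29 and 7.29 on the descending arrays. Ascending replicates 1 and 2 lay far above every descending array and replicate 3 lay among them. Its mean was 9.03 ± 1.45 in ascending and 7.38 ± 0.15 in descending aorta (SD, n = 3 each), a difference of 1.65 ± 0.62 (SE, adjusted p = 0.53 by limma). Without ascending replicate 3 the difference was 2.48 ± 0.13 (SE), or 5.57-fold (adjusted p = 0.000232 by limma). Bves, another Popeye gene, named for the blood vessel and epicardium in which it was described, read 9.55, 9.36 and 8.09 in ascending aorta, against 8.16, 8.07 and 8.15 in descending aorta. Its descending arrays spread little (SD 0.052), and ascending replicate 3 again fell inside their range. The difference was 0.87 ± 0.34 (SE, adjusted p = 0.53 by limma) over 6 arrays and 1.33 ± 0.099 (SE) without ascending replicate 3, or 2.51-fold (adjusted p = 0.000578 by limma). Popdc3, the family member next to Bves on the chromosome, read 6.69, 6.64 and 6.26 in ascending aorta, against 6.35, 6.20 and 6.25 in descending aorta. Ascending replicates 1 and 2 were again the highest arrays and replicate 3 lay within the descending range, at smaller distances, and Popdc3 did not pass without ascending replicate 3 (0.40 ± 0.093, SE, adjusted p = 0.0545 by limma).

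**Figure D1:**
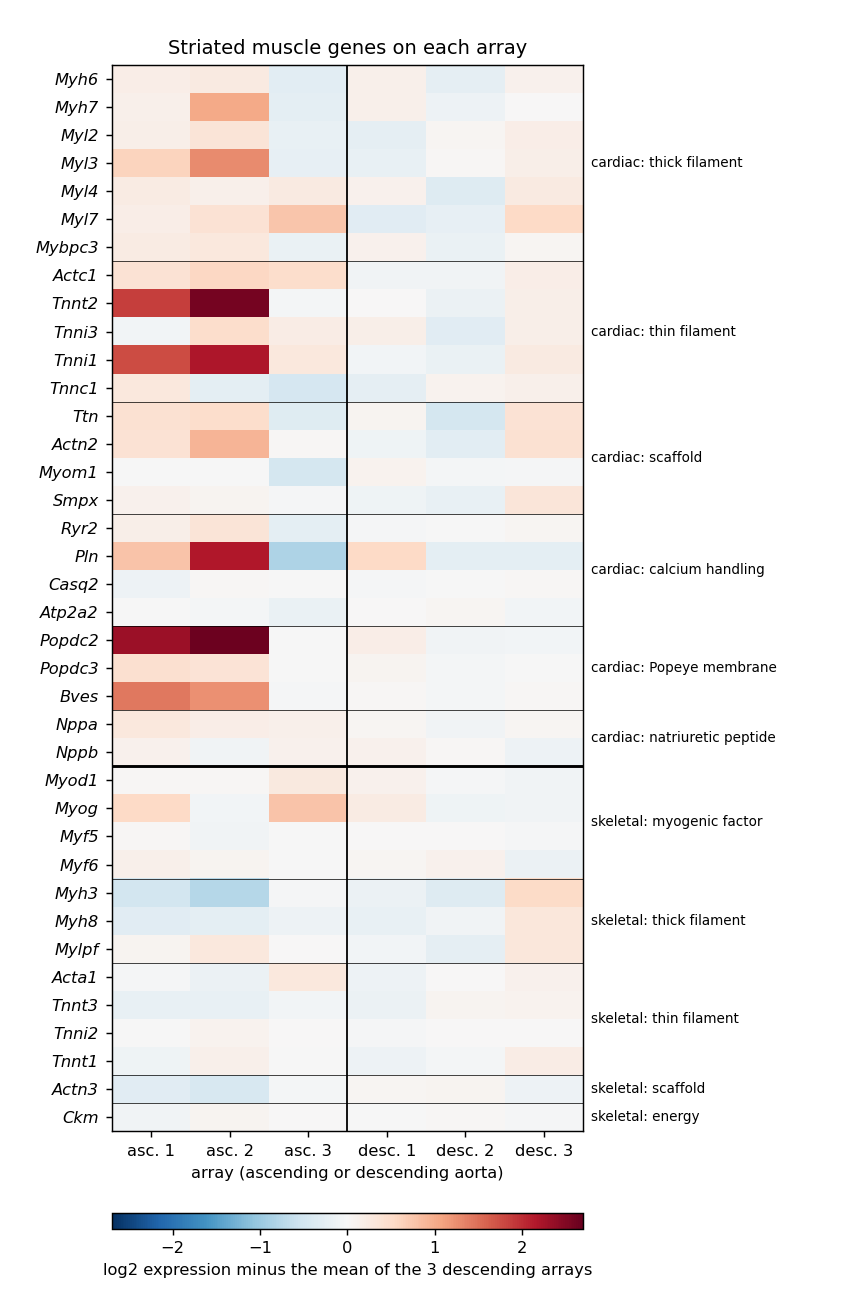
Each row is a striated muscle gene and each column an array, the 3 ascending ones left of the 3 descending ones, with colour giving log2 expression minus the mean of the descending arrays. Popdc2, Tnnt2, Tnni1 and Bves stand out on ascending replicates 1 and 2, and Pln mainly on ascending replicate 2. Ascending replicate 3 reads from 0.84 below the descending mean for Pln to 0.77 above it for Myog.

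On the thin filament, Tnnt2, the cardiac troponin T gene, read 10.78, 11.49 and 8.86 in ascending aorta, against 8.90, 8.74 and 9.06 in descending aorta. Tnni1, which encodes the slow skeletal troponin I that the embryonic heart also uses, read 10.31, 10.74 and 8.84 in ascending aorta, against 8.49, 8.38 and 8.79 in descending aorta. Replicates 1 and 2 of the ascending aorta were high for both genes. Ascending replicate 3 lay among the descending arrays for Tnnt2 and just above all of them for Tnni1, so that the groups did not overlap for Tnni1. Tnnt2 differed by 1.47 ± 0.58 (SE, adjusted p = 0.53 by limma) over 6 arrays and by 2.23 ± 0.20 (SE) without ascending replicate 3, or 4.70-fold (adjusted p = 0.0012 by limma), and by 0.92 without ascending replicate 2. Tnni1 differed by 1.41 ± 0.43 (SE, adjusted p = 0.53 by limma) and by 1.97 ± 0.16 (SE) without that array, or 3.92-fold (adjusted p = 0.000907 by limma).

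The other troponin subunits of the heart did not pass. Tnni3, the troponin I of the adult heart, read 8.02, 8.57 and 8.29 in ascending aorta, against 8.26, 7.79 and 8.26 in descending aorta, and the groups overlapped. Its difference was 0.19 ± 0.20 (SE) without ascending replicate 3 (adjusted p = 0.706 by limma). Tnnc1, the troponin C of heart and slow skeletal muscle, read 10.77, 10.22 and 10.02 in ascending aorta, against 10.24, 10.58 and 10.62 in descending aorta, with ascending replicate 1 alone above all other arrays. It differed by -0.14 ± 0.20 (SE) over 6 arrays and by 0.016 ± 0.18 (SE) without ascending replicate 3.

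Actc1, the cardiac actin gene that embryonic skeletal muscle also uses, separated the groups on every array. It read 11.23, 11.40 and 11.31 in ascending aorta, against 10.74, 10.75 and 11.01 in descending aorta. Its mean was 11.31 ± 0.085 in ascending and 10.83 ± 0.16 in descending aorta (SD, n = 3 each), a difference of 0.48 ± 0.10 (SE). It had the smallest unadjusted p of the members in limma (unadjusted p = 0.0017, adjusted p = 0.53). The difference was the same size without ascending replicate 3, 0.48 ± 0.12 (SE, adjusted p = 0.0665 by limma). Of the 38 members, Actc1, Tnni1 and Nppa were those whose 3 ascending arrays all lay above the 3 descending ones, and no member had them all below. Among all genes 5.87% lay above and 8.95% below. The actins are close paralogs, and probes of Actc1 could share sequence with Acta2, whose difference was -0.022 ± 0.074 (SE), so small differences among actins are uncertain.

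**Figure D2:**
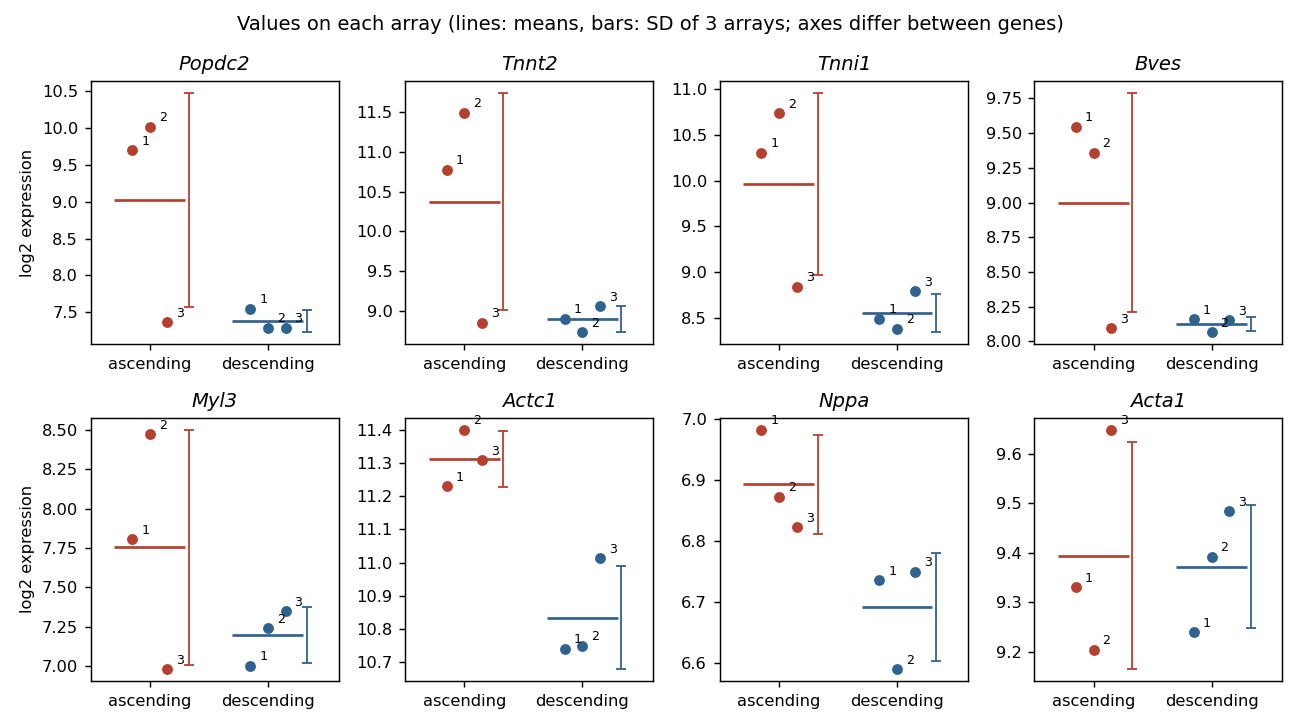
Points are log2 expression of 8 genes on single arrays, labelled by replicate, with ascending left of descending aorta, lines at the means and bars for the SD of 3 arrays. Ascending replicate 3 lies at the level of the descending arrays for Popdc2, Tnnt2 and Bves, with the other ascending arrays for Actc1, and above all other arrays for Acta1.

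On the thick filament, Myl3, the essential light chain of ventricle and slow skeletal muscle, read 7.81, 8.47 and 6.98 in ascending aorta, against 7.001, 7.24 and 7.35 in descending aorta. It spanned the whole range of the descending arrays, since ascending replicate 3 was the lowest array and replicate 2 the highest. The difference was 0.56 ± 0.33 (SE, adjusted p = 0.603 by limma) over 6 arrays and 0.94 ± 0.19 (SE) without ascending replicate 3, or 1.92-fold (adjusted p = 0.0343 by limma). Without ascending replicate 2, its highest array, the difference was 0.20 (adjusted p = 0.849 by limma). Myh7, the beta myosin heavy chain of the embryonic ventricle, read 8.83, 9.70 and 8.43 in ascending aorta, against 8.82, 8.54 and 8.69 in descending aorta. Only ascending replicate 2 was clearly high, and without it the difference of Myh7 was -0.054 in place of 0.30 ± 0.29 (SE). Myh6, its close paralog and neighbour that encodes the alpha chain of atrium and adult ventricle, read 7.79, 7.86 and 7.32 in ascending aorta, against 7.74, 7.36 and 7.73 in descending aorta. These chains are similar in sequence, so their probe sets may share signal, and the groups overlapped for both.

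The other light chains and myosin binding protein C gave smaller differences. Myl7, the regulatory light chain of atrium and embryonic heart, read 9.36, 9.58 and 9.93 in ascending aorta, against 8.87, 8.95 and 9.71 in descending aorta. Here ascending replicate 3 was the highest array of all, and descending replicate 3 stood with the ascending arrays. Myl4, the essential light chain of atrium and embryonic muscle, read 9.71, 9.62 and 9.74 in ascending aorta, against 9.61, 9.14 and 9.74 in descending aorta, so descending replicate 2 alone was low. Myl7 differed by 0.44 ± 0.24 and Myl4 by 0.20 ± 0.15 (SE). Myl2, the ventricular regulatory light chain, differed by 0.11 ± 0.16 (SE), and Mybpc3, which encodes cardiac myosin binding protein C, by 0.11 ± 0.14 (SE). Over all 6 arrays the 7 thick filament members had higher means in ascending aorta, where 43.8% of all genes did, with a median difference of 0.20. Without ascending replicate 3, 1 of them, Myl3, passed as higher by limma, where 2.07% of all genes did.

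Of the proteins that hold the sarcomere together, Actn2, the alpha-actinin of the Z-disc, read 8.10, 8.62 and 7.74 in ascending aorta, against 7.60, 7.42 and 8.12 in descending aorta. Descending replicate 3 lay at the level of ascending replicate 1, and the groups overlapped. Actn2 differed by 0.44 ± 0.25 (SE) over 6 arrays and by 0.65 ± 0.22 (SE) without ascending replicate 3 (adjusted p = 0.178 by limma), and by 0.21 without ascending replicate 2. Myom1, which crosslinks myosin at the M-band, read 8.41, 8.41 and 7.93 in ascending aorta, against 8.50, 8.35 and 8.38 in descending aorta. For Myom1 only ascending replicate 3 was apart, on the low side. Ttn, the giant spring titin, differed by 0.19 ± 0.27 (SE), with descending arrays spread by an SD of 0.44, and Smpx, a small X-linked muscle protein gene, by 0.056 ± 0.14 (SE).

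Among the genes of calcium handling, Pln, which encodes phospholamban, the brake on the calcium pump, had the largest SD of all members within ascending aorta. It read 7.35, 8.76 and 5.75 in ascending aorta, against 7.12, 6.34 and 6.32 in descending aorta. Ascending replicate 2 was far above and ascending replicate 3 below all descending arrays. Its mean was 7.29 ± 1.503 in ascending and 6.59 ± 0.46 in descending aorta (SD, n = 3 each). The difference of 0.70 ± 0.67 (SE) became 1.46 ± 0.40 (SE) without ascending replicate 3 (adjusted p = 0.0886 by limma) and -0.037 without ascending replicate 2. Atp2a2, the calcium pump itself, which smooth muscle uses too, read 11.93, 11.90 and 11.77 in ascending aorta, against 11.95, 12.00 and 11.88 in descending aorta. Its 6 arrays lay close together, with a difference of -0.076 ± 0.081 (SE). Ryr2, the calcium release channel of the heart, differed by 0.083 ± 0.15 and Casq2, which stores calcium in the reticulum, by -0.041 ± 0.079 (SE).

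The natriuretic peptide genes, hormones of atrial and embryonic heart muscle, gave small differences. Nppa read 6.98, 6.87 and 6.82 in ascending aorta, against 6.74, 6.59 and 6.75 in descending aorta. The groups of Nppa did not overlap, with a difference of 0.20 ± 0.084 (SE, unadjusted p = 0.046, adjusted p = 0.534, limma). Its neighbour Nppb read 6.74, 6.53 and 6.75 in ascending aorta, against 6.74, 6.65 and 6.49 in descending aorta, and differed by 0.045 ± 0.099 (SE).

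None of the skeletal muscle members passed with or without ascending replicate 3 in limma. Of the factors that set skeletal muscle fate, Myod1 read 7.16, 7.15 and 7.40 in ascending aorta, against 7.25, 7.10 and 7.04 in descending aorta. Myog, the myogenin gene that acts when muscle cells differentiate, read 7.29, 6.66 and 7.52 in ascending aorta, against 6.96, 6.63 and 6.64 in descending aorta. Both genes were highest on ascending replicate 3, the array that did not share the cardiac pattern, and their groups overlapped. They differed by 0.10 ± 0.10 and 0.41 ± 0.21 (SE). Myf5 and Myf6, neighbouring genes of the same family, differed by -0.025 ± 0.074 and 0.068 ± 0.097 (SE), and were the members whose mean lay below the 25th percentile of all genes.

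The embryonic and perinatal myosin heavy chain genes had lower means in ascending aorta, and neither passed the test. Myh3, the embryonic chain, read 6.95, 6.67 and 7.39 in ascending aorta, against 7.27, 7.08 and 7.95 in descending aorta. Ascending replicates 1 and 2 were below all descending arrays, descending replicate 3 was the highest, and the difference was -0.43 ± 0.26 (SE) over 6 arrays and -0.62 ± 0.24 (SE) without ascending replicate 3 (adjusted p = 0.219 by limma). Myh8, the perinatal chain, differed by -0.24 ± 0.14 (SE). Without descending replicate 3 the differences were -0.17 for Myh3 and -0.086 for Myh8. Mylpf, the fast regulatory light chain, differed by 0.13 ± 0.15 (SE). Actn3, the alpha-actinin of fast fibres, read 7.71, 7.59 and 7.98 in ascending aorta, against 8.08, 8.10 and 7.89 in descending aorta. Ascending replicates 1 and 2 were its lowest arrays, and it differed by -0.26 ± 0.12 (SE, adjusted p = 0.538 by limma). Ckm, the muscle creatine kinase that buffers ATP, read 7.16, 7.34 and 7.28 in ascending aorta, against 7.24, 7.29 and 7.23 in descending aorta, a difference of 0.0027 ± 0.079 (SE).

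The skeletal actin and troponin genes differed little between the groups. Acta1, the skeletal actin gene, read 9.33, 9.204 and 9.65 in ascending aorta, against 9.24, 9.39 and 9.48 in descending aorta. The groups overlapped and differed by 0.022 ± 0.13 (SE) over 6 arrays and by -0.10 ± 0.11 (SE) without ascending replicate 3. Tnnt3 and Tnni2, troponins T and I of fast fibres, differed by -0.16 ± 0.095 and 0.029 ± 0.072 (SE), and Tnnt1, the troponin T of slow fibres, by 0.0020 ± 0.11 (SE). Set beside these, the cardiac Tnnt2 and the slow Tnni1 were the members of the troponin T and troponin I families that passed without ascending replicate 3. Whether paralogs differed from each other was not tested.

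**Figure D3:**
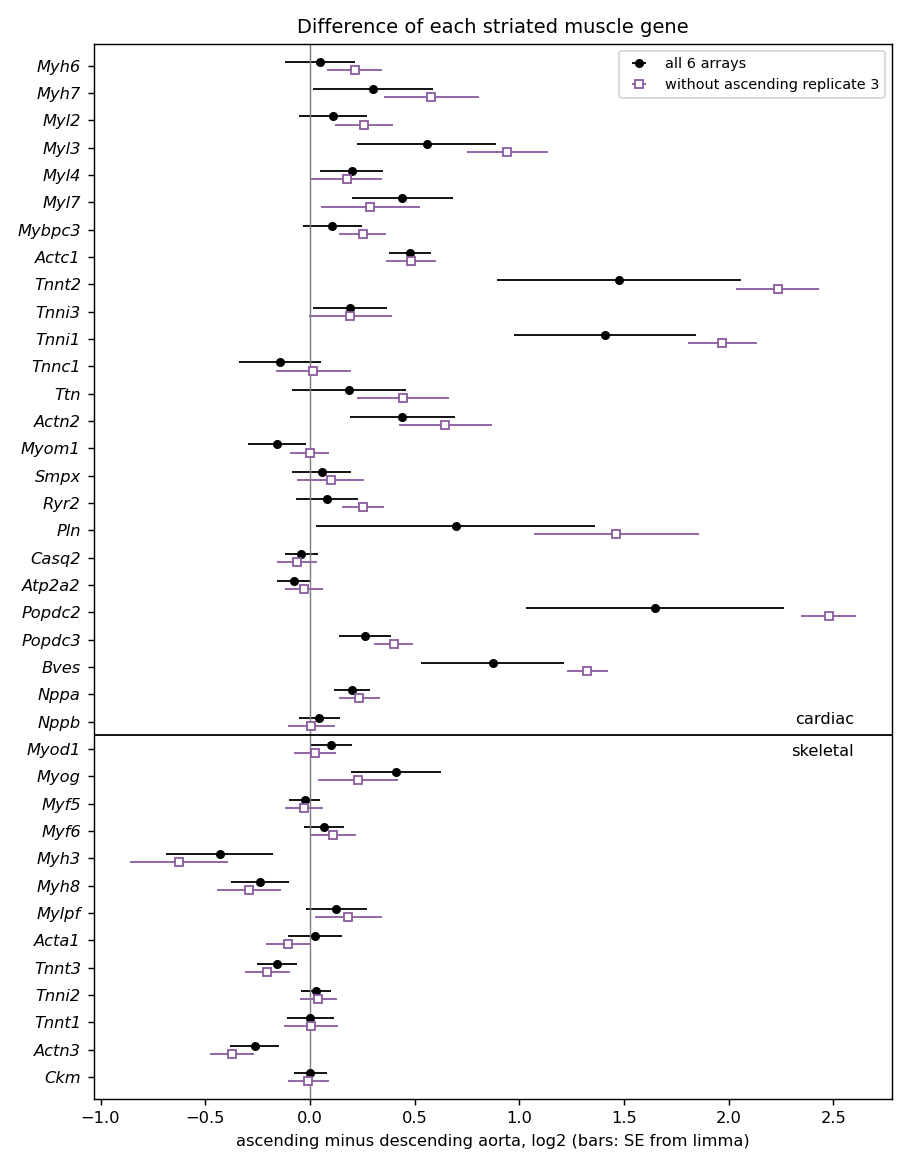
Horizontal positions are differences, ascending minus descending aorta on the log2 scale, for 25 cardiac genes above and 13 skeletal genes below the line, with SE from limma as bars. Filled points use 6 arrays and open squares leave out ascending replicate 3, and Popdc2, Tnnt2, Tnni1, Pln and Bves lie beyond 1 in the latter.

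Cardiac and skeletal members were then set side by side as lists. The lists differ in level, as 13 of 25 cardiac and 3 of 13 skeletal members had means above the 50th percentile of all genes. RMA shrinks dim differences, so small differences of skeletal members are less certain. By their means over 6 arrays 21 of 25 cardiac and 8 of 13 skeletal members were higher in ascending aorta, where 43.8% of all genes were. The median difference was 0.20 for cardiac members, 0.0027 for skeletal members and -0.021 for all genes, and the cardiac median lay 0.20 above the skeletal one. A difference of at least 0.5 in size was reached by 6 cardiac members and 0 skeletal members over 6 arrays, where 3.22% of all genes reached it, and by 8 and 1 without ascending replicate 3, where 6.25% did. Differences of at least 1 without that array were reached by 5 cardiac members and by 0.597% of all genes as higher. The cardiac list thus held a few members with large differences and many near 0, and its median came to 0.055 when ascending replicate 2 was left out and to 0.26 when ascending replicate 3 was.

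Ascending replicates 1 and 2 both lay above all descending arrays for 14 of 25 cardiac members, where 15.6% of all genes did, and for 0 of 13 skeletal members. Both lay below for 0 cardiac members and for 4 of 13 skeletal members, Myh3, Myh8, Tnnt3 and Actn3, where 18.9% of all genes did. For the 14 cardiac members, ascending replicate 3 lay above the descending range in 3, within it in 5 and below it in 6. Ascending replicate 2 was the highest array for 14 of 25 cardiac members and for 2 of 13 skeletal members. Descending replicate 3 was the highest for 5 of 13 skeletal members.

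The median position of the cardiac members, relative to the descending means, was 0.22, 0.37 and -0.032 on ascending replicates 1, 2 and 3, against 0.035, -0.10 and 0.12 on the descending arrays. Descending replicate 3 was thus the highest descending array, and ascending replicate 3 lay within the descending range. For skeletal members the medians were -0.042, -0.083 and -0.0019 on the ascending arrays, against -0.032, 0.015 and 0.017 on the descending arrays. The spread within ascending aorta was larger for cardiac members, with a median SD of 0.29 in ascending and 0.16 in descending aorta, than for skeletal members, with 0.12 in ascending and 0.14 in descending aorta. For all genes these medians were 0.12 and 0.10.

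**Figure D4:**
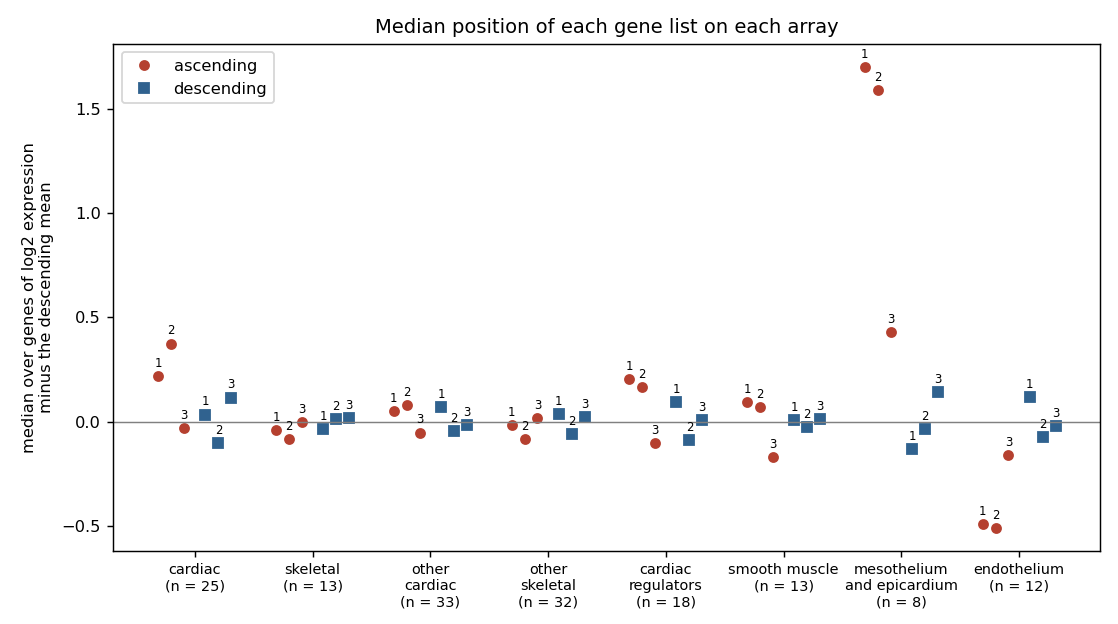
Each point is the median over a gene list of log2 expression minus the descending mean on 1 array, numbered by replicate, with ascending arrays left of descending arrays. For cardiac members ascending replicates 1 and 2 are at 0.22 and 0.37, and the mesothelial and endothelial markers separate the same arrays more widely.

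Several members sit next to each other in the genome, in 9 neighbouring pairs with at most 3 protein-coding genes between them. Tnni1 and Tnnt2 lie on chromosome 1 with only Lad1 between them, and were the pair in which both genes differed by at least 0.5 without ascending replicate 3. Lad1, which encodes a basement membrane anchoring protein, read 7.17, 7.45 and 6.79 in ascending aorta, against 6.84, 6.96 and 6.996 in descending aorta, so the same arrays were high by a smaller distance. The other troponin pairs did not show this: Tnnt1 and Tnni3 differed by 0.0039 and 0.19, and Tnni2 and Tnnt3 by 0.041 and -0.20, without ascending replicate 3. Popdc3 and Bves differed by 0.40 and 1.33, Ryr2 and Actn2 by 0.25 and 0.65, and Myh6 and Myh7 by 0.21 and 0.58 in that comparison. In each of these pairs both genes leaned toward ascending aorta by unequal amounts, and whether neighbours moved together beyond other genes was not tested.

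Further genes of striated muscle that are not in the list of 38 were compared in the same way. Of 33 other cardiac genes measured, 4 passed as higher and 0 as lower when ascending replicate 3 was left out (limma), where 2.07% and 2.61% of all genes did, and 0 passed over all 6 arrays. All 3 ascending arrays lay above the descending ones for 3 of these genes and below them for 0 (5.87% and 8.95% of all genes). The median difference without ascending replicate 3 was 0.075. Those that passed included Hcn4, the pacemaker channel gene of early heart muscle, at 1.06 ± 0.094 (SE, adjusted p = 0.00118 by limma), and Corin, the protease that activates the Nppa product, at 1.79 ± 0.14 (SE, adjusted p = 0.000803 by limma). Rbm24, which encodes an RNA-binding splicing regulator of muscle, passed at 0.60 ± 0.11 (SE, adjusted p = 0.0263 by limma), and Fabp3, the heart fatty acid binding protein gene, did not at 0.62 ± 0.19 (SE, adjusted p = 0.137 by limma). Of 32 other skeletal genes, 1 was higher and 0 lower without ascending replicate 3, again beside 2.07% and 2.61% of all genes, with a median of -0.035. All 3 ascending arrays lay above the descending ones for 1 of the 32 and below them for 6 (5.87% and 8.95% of all genes). The gene that passed was Cav3, the muscle caveolin gene, which the heart also uses, at 0.62 ± 0.093 (SE, adjusted p = 0.0102 by limma). Among those that did not pass, Myoz1, a Z-disc gene, differed by 0.39 ± 0.12 (SE) without ascending replicate 3 and had all 3 ascending arrays above. Lmod3, which encodes a nucleator of thin filaments, differed by -0.28 ± 0.099, and Chrnd, a subunit gene of the muscle acetylcholine receptor, by -0.23 ± 0.10 (SE), both with all 3 ascending arrays below.

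Of 18 regulators of heart development, 7 passed as higher and 0 as lower when ascending replicate 3 was left out (limma). Among all genes 2.07% and 2.61% did. In that comparison 12 of the 18 had higher means, and the median difference was 0.14, against -0.018 for all genes. All 3 ascending arrays lay above the descending ones for 1 of the 18 and below them for 1 (5.87% and 8.95% of all genes). Gata4, a zinc finger activator of sarcomere genes, read 10.28, 10.57 and 8.89 in ascending aorta, against 8.53, 8.63 and 8.66 in descending aorta. Ascending replicates 1 and 2 were high as for the troponins, and replicate 3 lay just above the descending arrays. Mef2c, another activator of muscle genes, read 9.997, 10.24 and 10.19 in ascending aorta, against 10.77, 10.38 and 10.49 in descending aorta, so it was lower on all 3 ascending arrays (-0.40 ± 0.12, SE, adjusted p = 0.53 by limma). Hand2 and Tbx20, both transcription factor genes of the early heart, differed by 1.83 ± 0.19 and 2.84 ± 0.17 without ascending replicate 3 (SE, adjusted p = 0.00205 and 0.000247 by limma). Within the 13 smooth muscle genes, 2 were higher and 0 lower without ascending replicate 3, where 2.07% and 2.61% of all genes were. Des, the intermediate filament desmin of all muscle types, differed by 2.05 ± 0.17 (SE, adjusted p = 0.000867 by limma) and Lmod1 by 0.54 ± 0.12 (SE, adjusted p = 0.0404 by limma). All 3 ascending arrays lay above the descending ones for 0 of the 13 and below them for 2 (5.87% and 8.95% of all genes), Mylk, the myosin light chain kinase gene, and Myh11, the smooth muscle myosin heavy chain gene. Over 6 arrays Mylk differed by -0.27 ± 0.096 and Myh11 by -0.53 ± 0.23 (SE, adjusted p = 0.53 and 0.538 by limma).

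Markers of other cell types differed between the same arrays. All 8 markers of mesothelium and epicardium had higher means in ascending aorta, with a mean level of 10.03, 10.08 and 8.86 on the ascending arrays, against 8.42, 8.51 and 8.76 on the descending arrays. Without ascending replicate 3 all 8 stayed higher, and 6 passed as higher by limma, where 2.07% of all genes did. All 12 endothelial markers had lower means, with a mean level of 10.38, 10.38 and 10.90 on the ascending arrays, against 11.16, 10.99 and 10.99 on the descending arrays. When ascending replicate 3 was left out all 12 stayed lower, and 5 passed as lower by limma, where 2.61% of all genes did. Macrophage and leukocyte markers were lower by their means in 11 of 12 genes, and their mean level ranged from 7.83 to 8.90 in ascending and from 8.61 to 8.78 in descending aorta. Markers of neurons and Schwann cells were lower in 7 of 8 genes, ranging from 7.31 to 7.43 in ascending and from 7.504 to 7.70 in descending aorta. Erythroid genes were lower in 3 of 6, ranging from 10.05 to 10.47 in ascending and from 10.31 to 10.56 in descending aorta. No marker is at 0, since RMA gives every probe set a positive value. The part of these cell types in the differences of the striated muscle genes was not tested.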

How the data were processed

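Total RNA from Trizol extracts was labelled as biotinylated cRNA for Affymetrix arrays, per the labels' protocols. The deposited values are log2 expression, made by the authors with RMA and Partek 6.6 per the submitters' processing notes, without settings. The genome build behind the probe sets is not given in the sources used here. RMA equalises arrays and shrinks dim differences. Of 35556 probe sets, 21789 had 1 gene symbol in the platform annotation, and the one with the highest mean per gene was kept, giving 19938 genes without a filter. Symbols were matched by Entrez number to RefSeq for 21698 probe sets, with 0 changed.

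Arrays were compared with limma 3.58.1 in R 4.3.3 (lmFit, eBayes, two-sided, Benjamini-Hochberg over all genes, threshold 0.05), ascending minus descending, tested on simulated data. Tables and plots used Python 3.11.15, pandas 2.3.3 and matplotlib 3.10.9. With 3 arrays a group an exact permutation test cannot reach 0.05 and was not used. Members and lists were chosen with earlier results of these data known, so no count of members is independent evidence. All members are accounted for. Values on each array are given for members that differ by at least 0.5 with or without ascending replicate 3, whose groups do not overlap or that have the highest mean of their role, and for others where they help the comparison. Of the other muscle and regulator lists, the 4 genes with the smallest unadjusted p over all 6 arrays are named, of the cell type marker lists none, and Acta2 and Lad1 were chosen after their values were seen. Alternatives were repeated quantile normalization, median-centring, a filter on the 25th or the 50th percentile of mean levels, means of probe sets, a variance trend, array weights, a replicate block, leaving out each array and leaving out ascending replicate 3 with descending replicate 1.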

Additional observations from a re-analysis of the deposited data

How the results depend on the processing

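No gene and no member passed under the 8 alternatives that keep all 6 arrays, or when a single array other than ascending replicate 3 was left out (limma). Leaving out 1 array gave 0 to 933 genes and 0 to 5 members, and leaving out ascending replicate 3 with descending replicate 1 gave 469 genes and 4 members (limma). The cardiac median ranged from 0.055 to 0.27 when single arrays were left out, the skeletal median from -0.019 to 0.045, and the distance between them from 0.054 to 0.28. A filter at the 50th percentile left 13 cardiac and 3 skeletal members, with medians of 0.44 and -0.16 that lay 0.60 apart. Fewer members enter there. Array weights gave a skeletal median of -0.032. With the replicate number as a block, 0 genes and 0 members passed. The cardiac median stayed at 0.20, which the layout fixes in advance, as each replicate number is present in both groups. Deviations of same-numbered arrays from their group means correlated at -0.080, -0.055 and 0.024 across genes. With 3 arrays a group, these values cannot show whether same-numbered arrays share an embryo or litter. Of 38 members, 22 kept their sign under all 15 alternatives, but not all 15 could change a sign. Each member has a single probe set, and the groups are balanced. The filters, the means of probe sets, the variance trend and the replicate block therefore left the difference of each member they kept unchanged. After repeated quantile normalization Casq2 differed by 0.010 and Myf5 by 0.019. With array weights Acta1 differed by -0.032, Tnnt1 by -0.077 and Ckm by -0.035. Without ascending replicate 3 and descending replicate 1, Myom1 differed by 0.045, Acta1 by -0.17, Tnnt1 by -0.060 and Ckm by -0.013. When single arrays were left out, the difference ranged from -0.10 to 0.12 for Acta1, -0.075 to 0.011 for Casq2, -0.038 to 0.052 for Ckm, -0.056 to 0.0082 for Myf5, -0.014 to 0.13 for Myf6, -0.077 to 0.21 for Myh6, -0.054 to 0.58 for Myh7, -0.012 to 0.26 for Myl2, -0.021 to 0.11 for Nppb, -0.037 to 1.46 for Pln, -0.053 to 0.25 for Ryr2, -0.048 to 0.22 for Smpx, -0.36 to 0.016 for Tnnc1, -0.062 to 0.098 for Tnnt1 and -0.048 to 0.45 for Ttn. The cause of these changes was not tested. Signal over background cannot be read from these values, and 2 skeletal members lay below the 25th percentile of mean levels.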
